A study of Homo sapiens with 18 samples.

Results

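The comparison described here set cells given a negative siRNA against untransfected cells, late in the experiment, at 48 h after transfection. It used 4 of the 18 arrays of the series, the 2 titled siNeg and the 2 titled Control at 48 h. The cells were U251, a human glioblastoma line, and gene expression was measured on Affymetrix human arrays, 1 array per sample. The siNeg cells had received an siRNA labelled siNegative, and the Control cells had received no treatment. The other arrays were siMPS1 cells, given an siRNA against MPS1, at 6, 24 and 48 h, and siNeg and Control cells at 6 and 24 h, with 2 arrays in each of 9 groups. The labels give neither the siNegative sequence nor the reagent, and do not say whether Control cells went through a mock transfection, so the siRNA and its delivery cannot be told apart. The labels number the replicates without saying whether they were separate cultures, so p-values measure only the spread between these arrays.

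A negative siRNA is designed to match no transcript of the cell, and serves to separate the effect of silencing a target from that of transfection itself. Transfected small RNA is loaded onto Argonaute proteins and can be sensed by double-stranded RNA receptors that start an interferon response. Carriers that bring it in pass through endosomes. Changes known from transfected cells in general therefore include interferon-induced genes, inflammatory cytokines, the unfolded protein response of the endoplasmic reticulum (ER) and the oxidative stress response of the transcription factor NRF2.

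The siRNA target of the study could check only the labels of the siMPS1 arrays, not which arrays were siNeg and which Control. TTK, the gene that encodes the MPS1 kinase, was at 6.72 and 6.92 in the siNeg arrays, against 6.57 and 6.91 in the Control arrays, and at 4.78 and 4.26 in the siMPS1 arrays, all on the log2(signal + 3) scale used for levels throughout. TTK did not pass the test between siNeg and Control cells, with a log2 difference of 0.08 ± 0.21 (SE) and an adjusted p of 0.859 by limma. Of 10 fixed markers of glial and mesenchymal glioma cells, 8 passed the filter on low values. Among them VIM lay between 11.7 and 12.1 in the 4 arrays and NES between 8.68 and 9.44, while GFAP was dim, at 3.58 to 4.19. S100B and CHI3L1 fell below the filter, which lay at a log2 level of 3.72. Among the short sets of markers of other cell types, none of 5 epithelial and none of 3 endothelial ones passed it, and HBB and SNAP25 were the 1 blood and the 1 neuronal marker that did, both dim. Longer marker lists held bright members: the keratins KRT18 and KRT8 lay between 9.41 and 9.65 and between 7.75 and 8.0 in the 4 arrays, and the neuronal genes UCHL1, NEFL and TUBB3 between 10.66 and 11.23.

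The siNeg arrays at 48 h stood apart from the other 16 arrays in control probe sets that do not measure messenger RNA of the cell. Their signals are given on the same log2 scale as the gene levels. The probe set for the middle of 18S ribosomal RNA was at 8.56 and 8.71 in the siNeg arrays, against 9.83 and 9.91 in the Control arrays. Over the other 16 arrays it ranged from 9.51 to 10.99. The 28S probe set showed the same order, with 9.17 and 9.21 in siNeg arrays against 10.31 and 10.43 in Control arrays. The bacterial dap transcript, one of the polyadenylated spikes that are usually added to an RNA sample before labelling, was at 6.45 and 6.75 in siNeg arrays, against 8.36 and 8.37 in Control arrays. The siNeg minus Control difference was -1.18 for the phe spike and -1.26 for the lys spike, against -0.04 for bioB and -0.14 for cre, which are spikes of the hybridization mix. For ACTB messenger RNA, the 3' minus the 5' probe set was 0.10 and 0.14 in the siNeg arrays, against 0.15 to 0.92 over the other 16 arrays. For GAPDH it was 0.01 and 0.08, within the -0.03 to 0.30 of the other 16. The siMPS1 arrays at 48 h had the highest ACTB values, 0.87 and 0.92, and the highest 28S levels, 11.41 and 11.43. These values go with every siNeg minus Control difference at 48 h described below, and their part in them was not tested. The 2 siNeg arrays cannot both be left out, since they are the group compared.

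**Figure D1:**
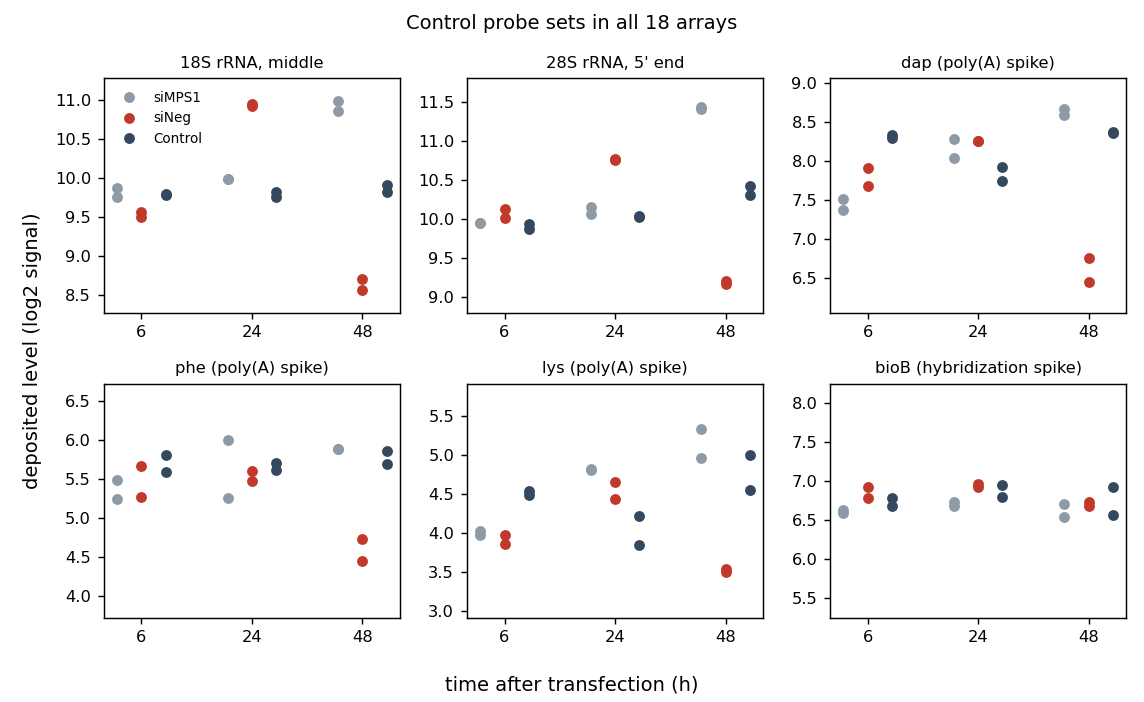
Signal of 6 control probe sets (vertical axis, log2 scale of the gene levels) in all 18 arrays against time after transfection (horizontal axis). Each array is 1 point, for siMPS1, siNeg and Control cells. The siNeg points at 48 h are the lowest of all arrays for 18S, 28S, dap, phe and lys, and lie among the others for bioB.

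Of 7828 genes tested, 1012 differed between siNeg and Control cells at 48 h at an adjusted p under 0.05, which is 12.9% of those tested. Of these, 534 were higher in siNeg cells (6.82%) and 478 were lower (6.11%). Which direction held more calls turned with the scaling: with the arrays centred on their medians 410 were higher and 493 lower. Differences were mostly small: the median size among called genes was 0.45 on the log2 scale, and 23 of the genes higher in siNeg cells and 26 of those lower changed at least 2-fold. The median over all genes was 0.01. All 1012 called genes had both siNeg arrays beyond both Control arrays, as did 4278 of all genes tested (54.65%). The number of calls rested on each array: it was 440 without siNeg replicate 1, 507 without Control replicate 1, 612 without Control replicate 2 and 868 without siNeg replicate 2.

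**Figure D2:**
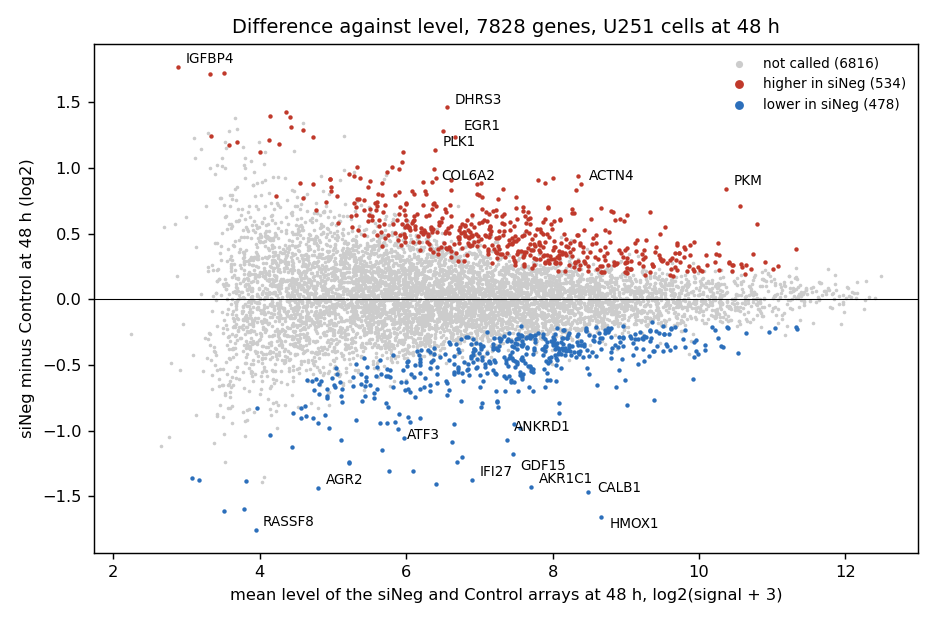
Log2 difference between siNeg and Control cells at 48 h (vertical axis) against the mean level of the 4 arrays on the log2(signal + 3) scale (horizontal axis), with 1 point per gene. Red marks the 534 genes higher and blue the 478 lower in siNeg cells; HMOX1 and CALB1 are the largest falls among brighter genes, while several of the largest rises, such as IGFBP4, are in dim genes.

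HMOX1 had the smallest p of all falls at 48 h, and 2 further stress or detoxification genes stood among the strongest falls. HMOX1 (chromosome 22), the heme-degrading enzyme and a known target of NRF2, was at 7.75 and 7.91 in the siNeg arrays, against 9.56 and 9.41 in the Control arrays. The groups were far apart, with a log2 difference of -1.66 ± 0.08 (SE) and an adjusted p of 2.38e-10, and 31.7% of the Control level was left. AKR1C1, an aldo-keto reductase of steroids and reactive carbonyls, was at 7.13 and 6.86 in siNeg cells, against 8.54 and 8.31 in Control cells, a log2 difference of -1.43 ± 0.11. GDF15, a secreted stress cytokine, was at 6.97 and 6.76 in siNeg cells, against 8.08 and 8.0 in Control cells, a difference of -1.17 ± 0.08. In each of these 3 genes both siNeg arrays were also below both siMPS1 arrays, which were at 9.90 and 9.88 for HMOX1, at 8.87 and 8.82 for AKR1C1 and at 8.72 and 8.65 for GDF15.

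CALB1, a calcium-buffering protein, was at 7.75 in both siNeg arrays, against 9.21 and 9.22 in the Control arrays, with a log2 difference of -1.46 ± 0.09 and an adjusted p of 1.45e-08. ANKRD1, a muscle ankyrin-repeat protein and a common target of the transcriptional co-activator YAP, was at 6.87 and 6.81 in siNeg cells, against 8.0 and 7.83 in Control cells (-1.07 ± 0.07). KCNK1, a potassium channel, was at 8.62 and 8.60 in siNeg cells, against 9.44 and 9.40 in Control cells (-0.81 ± 0.06). In all 3 genes the replicates lay close together. Groups that did not overlap and a small p were conditions for naming them, so neither adds support. AGR2, a protein disulfide isomerase of the ER, fell by 1.43, and DHRS9, a retinol dehydrogenase, fell by 1.40.

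The remaining large falls were in dim genes, whose arrays scattered more. RASSF8, a protein with a Ras-association domain, was at 2.21 and 3.93 in siNeg cells, against 4.79 and 4.86 in Control cells, and its difference of -1.75 ± 0.35 was the largest fall in size. HLA-DOA, a chain of an MHC class II modulator, fell by 1.61, C6orf15 fell by 1.59, the granulocyte receptor CEACAM3 fell by 1.38 and the chromatin remodelling subunit INO80D fell by 1.38. CEACAM3 had an adjusted p of 0.0497. The call of C6orf15 was lost without siNeg replicate 1 or either Control array, and that of HLA-DOA without siNeg replicate 2 or Control replicate 2. CEACAM3 lost its call under 9 alternatives, among them leaving out siNeg replicate 1 or either Control array, and INO80D did so in a fit of the 4 compared arrays alone.

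The oxidative stress and NRF2 list had the largest share of members lower among the lists with at least 10 measured genes. Of 34 listed genes, 28 passed the filter, and 13 of these were lower in siNeg cells while none was higher, against 6.11% lower and 6.82% higher over all genes. The median of the 28 was -0.20. AKR1C2 was at 6.07 in both siNeg arrays, against 7.30 and 7.32 in the Control arrays (-1.24 ± 0.14). SLC7A11, the cystine importer that supplies glutathione synthesis, was at 9.62 in both siNeg arrays, against 10.28 and 10.17 in the Control arrays (-0.60 ± 0.09, adjusted p = 0.000156). The glutathione-synthesis subunits GCLM and GCLC fell by 0.40 and by 0.32, and the thioredoxin reductase TXNRD1 fell by 0.21, all 3 genes chosen after their values were seen. AKR1C1, AKR1C2 and AKR1C3 are near-identical in sequence, as are the metallothioneins MT1H and MT1F among the 13, so their probe sets may share signal. The count of members lower was 8 without Control replicate 1 and 7 without Control replicate 2.

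The ER stress and ATF4 list moved in the same direction. Of 42 listed genes, 40 were measured, 17 fell (42.5%) and 1, the amino acid transporter SLC7A5, rose (0.23). The median was -0.25, and over all genes 6.11% fell and 6.82% rose. ATF3, a stress-induced transcription factor, was at 5.34 and 5.45 in siNeg cells, against 6.35 and 6.41 in Control cells (-0.98 ± 0.09, adjusted p = 1.54e-06). DDIT3, the transcription factor CHOP that links ER stress to cell death, was at 6.94 and 6.76 in siNeg cells, against 7.73 and 7.53 in Control cells (-0.78 ± 0.09). HERPUD1, a component of ER-associated degradation, was at 8.32 and 8.24 in siNeg cells, against 8.96 and 8.91 in Control cells (-0.65 ± 0.06). In all 3 genes the siNeg arrays were below the Control arrays by more than the arrays of a group differed. Choosing list members by small p favours such a gap. The co-chaperone DNAJB9 had a difference of -0.58 ± 0.07. The ER chaperone HSP90B1 fell by 0.32, the pseudokinase TRIB3 fell by 0.46 and the asparagine synthetase ASNS fell by 0.22. HSPA5, the main ER chaperone, had a difference of -0.20 and ATF4 itself of -0.15, and neither passed the test. These 5 genes and SLC7A5 were chosen after their values were seen. The count of 17 ranged from 12 without Control replicate 1 to 17 without Control replicate 2, while the call of SLC7A5 was lost with median centring and without siNeg replicate 1 or either Control array.

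The promoters of 2 of these genes show the elements through which the unfolded protein response is known to act. They are given from 250 bases before to 50 bases after the RefSeq start on GRCh38.p14. In HERPUD1 (chr16:56931892-56932191, plus strand) the capitals mark the ERSE-II element, ATTGG and CCACG with 1 base between them, and in HSP90B1 (chr12:103930160-103930459, plus strand) they mark 2 ERSE elements, CCAAT and CCACG with 9 bases between them, the second on the opposite strand; both strands were searched.
HERPUD1: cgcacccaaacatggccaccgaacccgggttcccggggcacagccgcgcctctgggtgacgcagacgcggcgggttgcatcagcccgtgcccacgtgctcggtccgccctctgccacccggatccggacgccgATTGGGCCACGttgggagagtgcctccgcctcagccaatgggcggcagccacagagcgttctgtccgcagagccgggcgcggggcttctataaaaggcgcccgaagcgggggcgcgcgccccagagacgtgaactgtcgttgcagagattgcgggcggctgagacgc
HSP90B1: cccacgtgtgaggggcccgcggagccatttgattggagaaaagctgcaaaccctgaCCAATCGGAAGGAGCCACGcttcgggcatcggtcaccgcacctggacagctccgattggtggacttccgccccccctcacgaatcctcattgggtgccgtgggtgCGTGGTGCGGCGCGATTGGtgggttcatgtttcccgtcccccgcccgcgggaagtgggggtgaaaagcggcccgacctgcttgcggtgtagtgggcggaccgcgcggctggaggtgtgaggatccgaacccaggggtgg
Of all 35116 RefSeq promoters of this length, 0.0769% held ERSE and 0.0541% ERSE-II. These shares count promoters, whereas a list member counted as a gene if any of its promoters held the motif. Members with several promoters thus had more chances, here and for the motifs below. Among the 35 measured members of the ER stress and ATF4 list with a promoter in the table, 7 held ERSE and 3 held ERSE-II. Of the 15 members lower in siNeg cells with a promoter, HSP90B1 was the 1 with ERSE and HERPUD1 the 1 with ERSE-II; ERSE contains a CCAAT box, so the searches overlap with that motif. The antioxidant response core, TGAC and GC with 3 bases between them, was in 13.3% of all promoters, and in 5 of 19 measured NRF2 list members and 2 of the 9 lower in siNeg cells that had a promoter in the table. HMOX1 was not matched in the promoter table.

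No measured interferon-induced gene was called higher in siNeg cells at 48 h. Of 48 listed genes, 34 were measured, 4 were lower (11.8%) and none was higher, with a median of -0.08. Over all genes the shares were 6.11% lower and 6.82% higher. IFI27, an interferon-induced mitochondrial protein, was at 6.27 and 6.16 in siNeg cells, against 7.61 and 7.56 in Control cells and 7.30 and 7.28 in siMPS1 cells. Its difference of -1.37 ± 0.08 (adjusted p = 1.45e-08) was the third smallest p of all falls, whereas the other 3 called members moved little: the scramblase PLSCR1 fell by 0.29, the immunoproteasome subunit PSMB8 fell by 0.41 and the DNA sensor IFI16 fell by 0.27. The count of 4 was 2 without siNeg replicate 1 and without either Control array. The IFI27 promoter, from the first of 2 RefSeq starts (chr14:94110486-94110785, plus strand), holds 2 copies of the interferon response core, a pair of GAAA with 2 bases between them, marked in capitals, the first of them on the opposite strand.
IFI27: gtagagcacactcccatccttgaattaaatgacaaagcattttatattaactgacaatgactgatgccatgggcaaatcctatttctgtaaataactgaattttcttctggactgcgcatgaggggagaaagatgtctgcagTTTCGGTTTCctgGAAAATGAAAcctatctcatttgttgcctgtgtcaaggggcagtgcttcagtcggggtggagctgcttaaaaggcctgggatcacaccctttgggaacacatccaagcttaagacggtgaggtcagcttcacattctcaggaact
This core was in 3.57% of all promoters, in 20 of the 29 measured interferon-induced members with a promoter, and in 3 of the 4 that were lower.

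The NF-kB and inflammation list leaned down as well. Of 22 measured genes among 30, 5 fell (22.7%) and 1 rose (4.55%), against 6.11% and 6.82% over all genes. The median was -0.27. TNFAIP3, the feedback inhibitor A20, was at 6.21 and 6.13 in siNeg cells, against 6.70 and 6.67 in Control cells (-0.52 ± 0.08). PTX3, a secreted pattern recognition protein, fell by 0.65, and the inhibitor NFKBIA fell by 0.48. The remaining falls were BIRC2 (-0.40) and IER3 (-0.25), the latter near the threshold (adjusted p = 0.041 by limma). TNFAIP2 was the member that rose, with 7.58 and 7.62 in siNeg cells, against 7.13 and 6.90 in Control cells (0.58 ± 0.11). Of the members not called, the prostaglandin synthase PTGS2 had a difference of -0.70 and the chemokine CCL2 of -0.28, both chosen after their values were seen.

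Immediate early genes split between both directions. Of 30 measured members among 33, 3 were higher (10%) and 7 lower (23.3%) in siNeg cells, against 6.82% and 6.11% over all genes. The 7 included ATF3, described with the ER stress list, which had the smallest p here, and IER3, also in the NF-kB list. The median of 0.01 became -0.02 when the arrays were centred on their medians. EGR1, a zinc-finger transcription factor of the growth factor response, was at 7.26 and 7.30 in siNeg cells, against 5.79 and 6.30 in Control cells and 6.39 and 6.26 in siMPS1 cells. The siNeg arrays were above all of these, and the difference from Control was 1.24 ± 0.13 (adjusted p = 5.66e-06). FOSL1, a partner of JUN in the AP-1 factor, was at 8.26 and 8.32 in siNeg cells, against 7.56 and 7.63 in Control cells (0.69 ± 0.09). Unlike for EGR1, the siMPS1 arrays of FOSL1, at 8.26 and 8.23, lay with the siNeg arrays. DUSP1, a phosphatase that switches off MAP kinases, was at 7.23 and 7.02 in siNeg cells, against 7.74 in both Control arrays (-0.61 ± 0.08), and its call was lost when the probe sets of the gene were averaged. The count of 7 lower members was 4 without Control replicate 1. The EGR1 promoter (chr5:138465229-138465528, plus strand) is shown for its 2 CArG boxes in capitals, the sequence that serum response factor binds.
EGR1: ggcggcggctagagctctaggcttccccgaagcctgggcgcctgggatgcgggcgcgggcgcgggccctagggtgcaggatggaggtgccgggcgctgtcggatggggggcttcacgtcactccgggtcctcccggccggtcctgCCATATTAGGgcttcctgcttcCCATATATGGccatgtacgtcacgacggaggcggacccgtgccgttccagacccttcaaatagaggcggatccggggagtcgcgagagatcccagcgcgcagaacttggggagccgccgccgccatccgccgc
CArG boxes were in 1.29% of all promoters, in 2 of the 21 measured immediate early members with a promoter, EGR1 and SRF, and in 1 of the 2 higher ones.

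The 6 rises with the smallest p were ACTN4, PKM, EFEMP1, COL6A2, MLF2 and TRIM28. ACTN4, which crosslinks actin filaments, was at 8.81 and 8.85 in siNeg cells, against 7.96 and 7.95 in Control cells and 7.68 and 7.78 in siMPS1 cells. The difference from Control was 0.88 ± 0.07 (adjusted p = 5.09e-07). PKM, the pyruvate kinase of glycolysis, was at 10.85 and 10.73 in siNeg cells, against 9.93 and 9.97 in Control cells (0.84 ± 0.07). TRIM28, a co-repressor that silences repeats, was at 8.43 and 8.50 in siNeg cells, against 7.56 and 7.52 in Control cells (0.93 ± 0.09). For these genes the gap between the groups was several times the gap between replicates, which choosing genes by small p favours. MLF2 rose by 0.89 and the matrix protein EFEMP1 rose by 0.71.

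The 10 largest rises by size were mostly dim genes. In all of them but PTMS and DCAF15, both siMPS1 arrays at 48 h also lay above both Control arrays. DHRS3, a retinaldehyde reductase, was the brightest of them with PPP2R1A: DHRS3 was at 7.29 in both siNeg arrays, against 5.94 and 5.72 in the Control arrays (1.46 ± 0.28, adjusted p = 0.00215). PPP2R1A, the scaffold subunit of protein phosphatase 2A, was at 7.23 and 7.07 in siNeg cells, against 5.93 and 5.81 in Control cells (1.28 ± 0.20). COL9A3, a collagen chain, was at 5.27 and 5.19 in siNeg cells, against 4.16 and 3.73 in Control cells (1.29 ± 0.24). These 3 kept their calls under all alternatives run. IGFBP4, which binds insulin-like growth factors, had the largest rise, with 3.22 and 4.32 in siNeg cells, against 1.83 and 2.18 in Control cells (1.77 ± 0.44). The other 6 were the tyrosine kinase SRC (1.72), the microtubule linker HOOK2 (1.72), the zinc-finger protein ZNF335 (1.43), parathymosin PTMS (1.40), the Cdc42 effector CDC42EP1 (1.39) and the ubiquitin ligase receptor DCAF15 (1.31). IGFBP4 and these 6 lost their calls when 1 of the 4 arrays was left out: Control replicate 1 for IGFBP4, HOOK2, PTMS, CDC42EP1 and DCAF15, Control replicate 2 for SRC, HOOK2, ZNF335 and PTMS, siNeg replicate 1 for SRC, HOOK2, ZNF335, PTMS and CDC42EP1, and siNeg replicate 2 for IGFBP4, HOOK2 and ZNF335.

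Matrix genes made up the longest group of rises. Of 45 measured members of the extracellular matrix and TGF-beta list, among 49, 16 rose (35.6%) and 4 fell (8.89%), with a median of 0.18. Over all genes 6.82% rose and 6.11% fell. COL6A2, a chain of collagen VI, was at 6.92 and 6.82 in siNeg cells, against 5.91 and 5.84 in Control cells and 6.34 and 6.25 in siMPS1 cells, and its difference from Control was 0.99 ± 0.09 (adjusted p = 1.71e-06). COL5A1, a fibrillar collagen chain, was at 7.51 and 7.28 in siNeg cells, against 6.53 and 6.68 in Control cells (0.79 ± 0.08). Its siMPS1 arrays, at 7.46 and 7.33, lay with the siNeg arrays. MMP2, a gelatinase that cuts basement membrane, was at 7.38 and 7.46 in siNeg cells, against 6.74 and 6.54 in Control cells (0.78 ± 0.10). Basement membrane collagen COL4A2 rose by 0.62. The 4 members lower in siNeg cells, listed with their values known, were the collagenase MMP1 (-0.90), the collagen crosslinker LOX (-0.70), the stromelysin MMP3 (-0.61) and the inhibitor of differentiation ID2 (-0.31). The count of 16 was 9 without siNeg replicate 1 and 10 without Control replicate 2, and that of 4 was 2 without siNeg replicate 1.

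Glial genes moved in part. Of 18 measured members of 26, 5 were higher (27.8%) and 2 lower (11.1%), against 6.82% and 6.11% over all genes. The median was 0.09. NES, the intermediate filament of neural progenitors, was at 9.44 and 9.22 in siNeg cells, against 8.68 and 8.70 in Control cells (0.64 ± 0.08). SOX9, a transcription factor of astroglial lineage, rose by 0.50, the fatty acid binding protein FABP7 rose by 0.40, and CRYAB, a small heat shock protein, fell by 0.94. The count of 5 was 2 without Control replicate 1 and 3 without siNeg replicate 1, and that of 2 was 1 without siNeg replicate 1 or either Control array. Among neuronal genes 2 of 9 measured were higher, UCHL1 (0.23) and ENO2 (0.41), and neither kept its call without siNeg replicate 1 or Control replicate 1. Of 5 measured epithelial genes the tight junction protein CLDN4 was lower (-0.53), a call lost without siNeg replicate 2 or Control replicate 2. None of the 3 blood genes and none of the 4 fibroblast and endothelial genes measured was called.

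Cell division genes were higher in siNeg cells wherever they were called. The mitosis and G2/M list had 13 of 48 measured members higher (27.1%) and none lower, with a median of 0.18. The spindle checkpoint and kinetochore list had 7 of 30 higher (23.3%) and none lower, with a median of 0.16. Over all genes 6.82% were higher and 6.11% lower. PLK1, a kinase that drives entry into mitosis, was at 7.03 and 6.90 in siNeg cells, against 5.93 and 5.72 in Control cells and 5.14 and 5.21 in siMPS1 cells. The siNeg arrays were the highest of the 6 at 48 h, and the difference from Control was 1.14 ± 0.18 (adjusted p = 0.000371). BUB1B, the checkpoint protein BubR1, was at 8.64 and 8.55 in siNeg cells, against 7.91 and 7.97 in Control cells (0.65 ± 0.10). Its siMPS1 arrays, at 8.30 and 8.25, lay between those of siNeg and Control cells. The mitotic motors KIF18B and KIF4A rose by 0.68 and 0.49, the separase gene ESPL1 rose by 0.65, and the anaphase activator CDC20 rose by 0.43. The count of 13 was 5 without Control replicate 1, 6 without siNeg replicate 1 and 8 without Control replicate 2, and that of 7 was 3 or 4 without any 1 of the 4 arrays.

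Replication genes had the same direction. Of 51 measured members of the G1/S and replication list, 11 were higher (21.6%) and none lower, and the median was 0.15. Over all genes 6.82% were higher and 6.11% lower. MCM2, a subunit of the replicative helicase, was at 9.02 and 8.98 in siNeg cells, against 8.55 and 8.58 in Control cells (0.43 ± 0.07, adjusted p = 0.000407). MCM7 and MCM6 of the same helicase rose by 0.47 and 0.42, and the primase PRIM1 rose by 0.48. The count of 11 was 3 without Control replicate 1, 4 without siNeg replicate 1, 5 without siNeg replicate 2 and 7 without Control replicate 2. The PLK1 promoter (chr16:23678639-23678938, plus strand) is shown for the pair of elements known from genes of G2 and mitosis, a CCAAT box and the cell cycle homology region TTTGAA, both in capitals.
PLK1: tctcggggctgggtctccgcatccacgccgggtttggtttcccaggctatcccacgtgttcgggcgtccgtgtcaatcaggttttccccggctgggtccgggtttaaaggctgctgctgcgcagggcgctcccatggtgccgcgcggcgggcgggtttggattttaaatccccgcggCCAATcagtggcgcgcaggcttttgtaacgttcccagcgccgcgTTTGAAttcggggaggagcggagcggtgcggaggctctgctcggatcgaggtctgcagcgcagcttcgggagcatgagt
TTTGAA was in 15.2% and CCAAT in 34.6% of all promoters. Of the 43 measured mitosis and G2/M members with a promoter, 30 held TTTGAA and 35 held CCAAT, and of the 11 higher ones with a promoter 6 and 9 did.

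**Figure D3:**
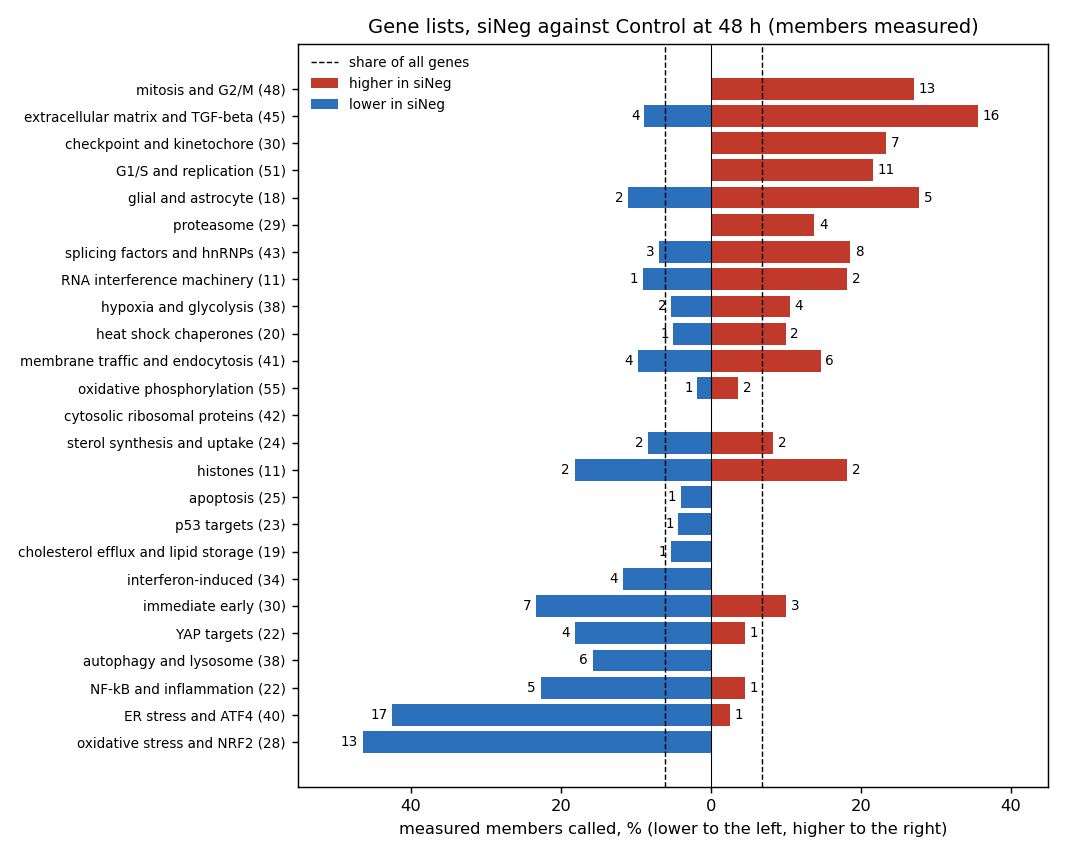
Share of the measured members of each gene list (horizontal axis, percent) called lower (blue, left) or higher (red, right) in siNeg cells at 48 h, with the number called beside each bar and the number measured in parentheses; dashed lines mark the shares over all genes, 6.11% lower and 6.82% higher. The oxidative stress and the ER stress lists extend farthest to the left, with 13 and 17 members, and the extracellular matrix list farthest to the right, with 16.

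Genes of RNA interference and of the routes of uptake were called in both directions, as were 6.82% (higher) and 6.11% (lower) of all genes. Of 11 measured RNA interference genes 2 rose (18.2%) and 1 fell (9.09%). SIDT2, a lysosomal nucleic acid transporter, was at 6.91 and 6.82 in siNeg cells, against 6.08 and 5.81 in Control cells (0.93 ± 0.15, adjusted p = 0.000562). The Dicer partner TARBP2 rose by 0.36 and the RNA-binding protein FMR1 fell by 0.34, and both calls were lost without siNeg replicate 1 or either Control array, and TARBP2 also without siNeg replicate 2. AGO3, an Argonaute protein, had a difference of -0.25 that did not pass. Of 41 measured membrane traffic genes 6 rose (14.6%) and 4 fell (9.76%). Among them were AP2M1 (0.66) and AP2S1 (0.32), subunits of the clathrin adaptor AP-2, the endosomal sorting protein HGS (0.69) and the late endosome GTPase RAB9A (-0.52). The count of 6 was 2 or 3 without any 1 of the 4 arrays, and that of 4 was 1 without siNeg replicate 1 or Control replicate 1 and 2 without Control replicate 2. Of 38 autophagy and lysosome genes none rose and 6 fell, among them the protease CTSZ, at 7.74 and 7.64 in siNeg cells, against 8.54 and 8.43 in Control cells, the autophagosome protein WIPI1 (-0.75), the cholesterol transporter NPC1 (-0.37) and the receptor SQSTM1 (-0.23). That count was 3 without Control replicate 2.

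Among the metabolic lists, YAP targets and splicing genes, the largest shares called were the falls of YAP targets (18.2%) and the rises of splicing genes (18.6%), against 6.11% lower and 6.82% higher over all genes. Of 38 hypoxia and glycolysis genes 4 rose and 2 fell, with PKM, TPI1 (0.35) and GPI (0.36) of glycolysis among the rises and DDIT4, an mTOR inhibitor, at 6.51 and 6.71 in siNeg cells, against 7.64 and 7.23 in Control cells. The 4 rises were 2 without siNeg replicate 1 or Control replicate 2, and the 2 falls were 1 without siNeg replicate 1 or either Control array. Of 24 sterol genes 2 rose and 2 fell, led by the fatty acid synthase FASN, at 7.54 and 7.38 in siNeg cells, against 6.56 and 6.59 in Control cells (0.89 ± 0.12). SC5D (-0.40), INSIG1 (-0.47) and LSS (0.34) completed the sterol calls, which were 1 in each direction without either Control array, and without siNeg replicate 1 none was lower. NPC1 was the 1 call among 19 cholesterol efflux genes. Of 22 YAP targets 1 rose, AXL (0.25), and 4 fell, with ANKRD1, TEAD1 (-0.68) and the tissue factor gene F3 (-0.28) among them; the falls were 2 without siNeg replicate 1 or either Control array, and AXL was not called without siNeg replicate 1 or Control replicate 1. Splicing genes had 8 of 43 higher and 3 lower, led by SRSF6 (0.53), RBM5 (0.59), HNRNPL (0.38) and SF1 (0.51); the 8 were 5 without Control replicate 1, and the 3 were 1 without either siNeg array or Control replicate 1.

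Small counts were found in the other lists, to be read against 6.82% higher and 6.11% lower over all genes. Heat shock chaperones had 2 of 20 higher, HSPB1 (0.42) and STIP1 (0.22), and 1 lower, and the count higher was 1 without siNeg replicate 1 or either Control array. Histones had H2AX (0.39) and H1-10 (0.77) higher and H2BC12 (-0.46) and H2AC6 (-1.13) lower among 11, of which none was lower without either Control array and 1 was higher without siNeg replicate 2 or either Control array. Of 29 proteasome genes 4 were higher and none lower, PSMD2 (0.29), PSME3 (0.42), PSMD3 (0.21) and PSMA7 (0.23), and without Control replicate 2 none was called. Of 55 oxidative phosphorylation genes 2 were higher, UQCRC1 (0.40) and ATP5F1B (0.26), and NDUFS6 (-0.23) was lower, a call lost without siNeg replicate 2 or either Control array. GADD45A (-0.38) was the 1 call among 23 p53 targets and BIRC2 (-0.40) the 1 call among 25 apoptosis genes. The call of BIRC2 was lost without Control replicate 1. No call was made among 42 cytosolic ribosomal proteins, whose median was 0.05.

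The difference at 48 h was not that of the earlier times. At 24 h, 73 genes were called (0.933% of those tested), with 36 higher in siNeg cells (0.46%) and 37 lower (0.473%), and at 6 h 299 were called (3.82%), with 222 higher (2.84%) and 77 lower (0.984%). The comparisons at the 3 times use different arrays and share the estimate of spread. Called at both 48 and 24 h were 28 genes, 2.77% of the calls at 48 h and 38.4% of those at 24 h. Of the 28, 8 had the same sign at both times and 20 the opposite sign, of which 17 were higher at 48 h and lower at 24 h. Called at both 48 and 6 h were 107 genes, 10.6% of the calls at 48 h and 35.8% of those at 6 h, and 91 of them had the same sign, 80 being higher at both times. These counts changed with median centring, which moved the median difference of all genes by -0.15 at 6 h and by 0.07 at 24 h. It gave 115 genes higher and 19 lower at 24 h, and 134 higher and 993 lower at 6 h. Of the 28 genes then called at both 48 and 24 h, 10 were higher at 48 h and lower at 24 h and 10 the reverse. Of the 197 called at both 48 and 6 h, 140 had the same sign, 31 being higher and 109 lower at both times. Across all 7828 genes, which are not independent, the log2 differences at 48 h correlated with those at 24 h at r = -0.16 and with those at 6 h at r = 0.18.

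Among the 6 rises with the smallest p, ACTN4 and MLF2 were called at all 3 times, with the opposite sign at 24 h. ACTN4 had log2 differences of 0.51 at 6 h, -0.41 at 24 h and 0.88 at 48 h, all 3 called, as it averaged 8.62 in siNeg cells against 8.11 in Control cells at 6 h and 7.73 against 8.15 at 24 h. MLF2 had 0.36 at 6 h, -0.37 at 24 h and 0.89 at 48 h. With median centring all these signs stayed, and ACTN4 was still called at 6 h (0.36) and 24 h (-0.35), while MLF2 was called at neither (adjusted p = 0.107 and 0.089 by limma). COL6A2 was called at 6 h (0.60) and 48 h, with -0.34 at 24 h, which did not pass (adjusted p = 0.071), and PKM was called at 6 h (0.35) and 48 h, with -0.29 at 24 h (adjusted p = 0.056). The 18S control probe set changed sign the opposite way between the later times: the siNeg arrays averaged 10.93 against 9.79 in the Control arrays at 24 h for 18S, and 8.64 against 9.87 at 48 h, and at 6 h 9.54 against 9.79. The part of these values in the gene differences was not tested.

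The stress genes HMOX1, AKR1C1, GDF15, ATF3 and HERPUD1 were called at 48 h and not at 6 or 24 h. HMOX1 averaged 9.20 in siNeg cells against 9.08 in Control cells at 6 h, 10.26 against 9.96 at 24 h and 7.83 against 9.48 at 48 h, and it was not called at 6 or 24 h (adjusted p = 0.42 and 0.059). AKR1C1 averaged 5.97 in siNeg cells against 6.22 in Control cells at 6 h and 8.33 against 8.24 at 24 h, without a call at either time, before 7.0 against 8.42 at 48 h. IFI27, ANKRD1, GDF15, CALB1, ATF3, HERPUD1 and EGR1 were not called at 6 or 24 h either. DNAJB9 was called at 24 h in the opposite direction, with a log2 difference of 0.31. None of the 28 measured NRF2 list members was called at 6 or 24 h. Of the 40 ER stress and ATF4 members 1 was higher at each of these times and none lower. Over all genes 3.82% were called at 6 h and 0.933% at 24 h, so lists of this size would hold few calls at these shares. The counts at 6 h depended on the scaling. With median centring 10 of the NRF2 members and 7 of the ER stress and ATF4 members were lower at 6 h. In that setting 993 of all 7828 genes were lower at 6 h. Among them were 30 of 55 oxidative phosphorylation genes and 22 of 42 cytosolic ribosomal proteins, so the fall was not particular to stress genes. With median centring AKR1C1 (-0.40) and ANKRD1 (-0.28) were also called at 6 h and HMOX1 (0.37) at 24 h.

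**Figure D4:**
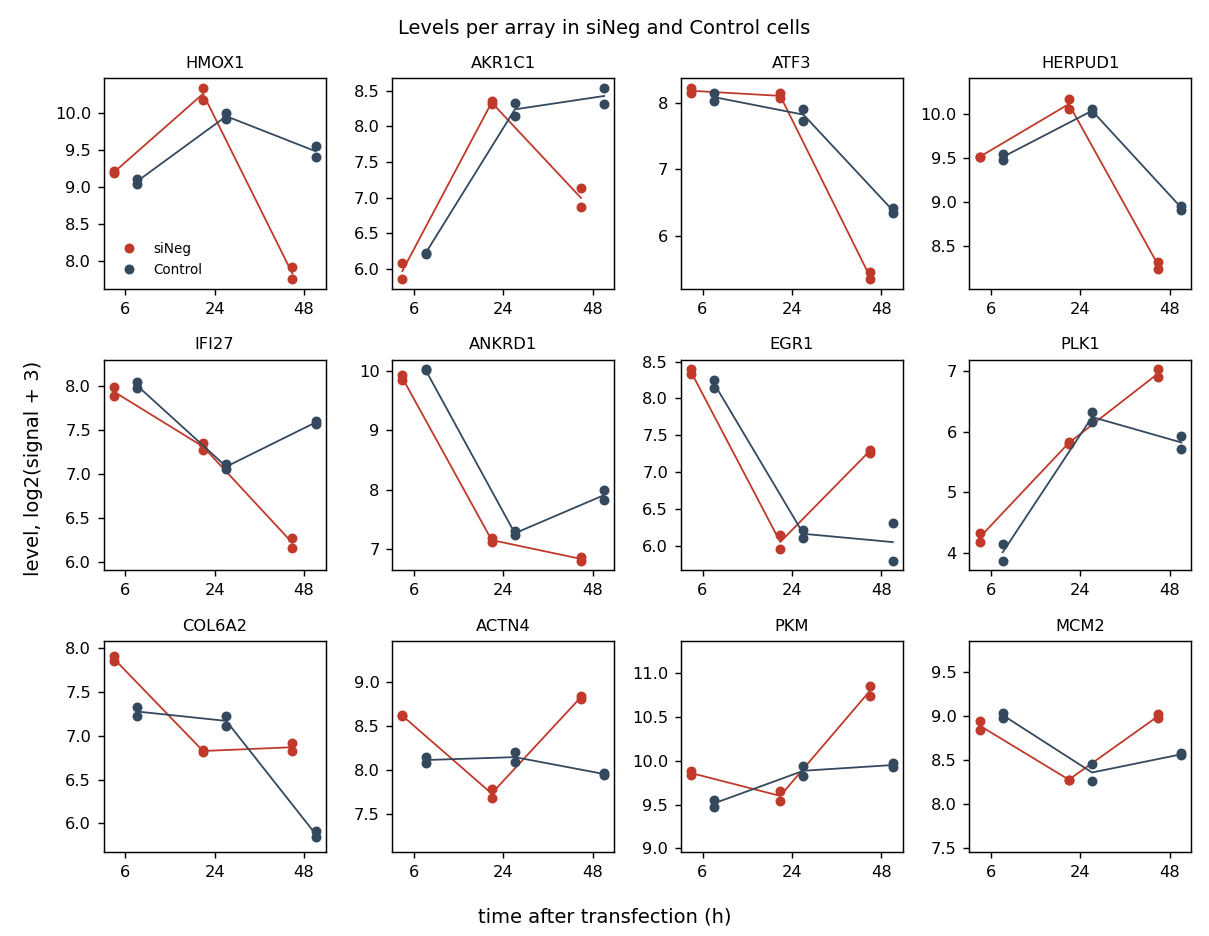
Level on the log2(signal + 3) scale (vertical axis) against time after transfection (horizontal axis, the 3 times evenly spaced and the groups side by side) for 12 genes, with 1 point per array and lines through the means of siNeg (red) and Control (dark) cells. The groups lie close together at 6 and 24 h for HMOX1, ATF3, HERPUD1, IFI27 and EGR1 and part at 48 h, while ACTN4 and PKM are higher in siNeg cells at 6 and 48 h and lower at 24 h.

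Tested directly, the siNeg minus Control difference changed between 24 and 48 h in 810 genes (10.3%), upward in 473 (6.04%) and downward in 337 (4.31%). With the arrays centred on their medians the split was 275 upward and 539 downward. The number was 399 without siNeg replicate 1 and 495 without Control replicate 1 of 48 h, and 402 without siNeg replicate 1 and 417 without Control replicate 2 of 24 h. HMOX1 changed by -1.96 (adjusted p = 4.83e-09), IFI27 by -1.60 and ACTN4 by 1.29. The largest upward changes were in dim genes, HDAC5 (2.14), C2orf68 (2.04), ASAP3 (2.02), ZNF335 (2.01) and CLUHP3 (1.97), and the largest downward ones were C6orf15 (-3.06), RASSF8 (-2.07), HMOX1, AGR2 (-1.78) and INO80D (-1.62). HDAC5, C2orf68, ASAP3 and CLUHP3 were not called at 48 h itself, with HDAC5 at 4.13 and 4.23 in siNeg cells against 3.09 and 3.93 in Control cells. Of the measured ER stress and ATF4 members 14 changed downward and 2 upward, of the NRF2 list 8 downward and none upward, of the mitosis and G2/M list 13 upward and none downward, and of the extracellular matrix and TGF-beta list 13 upward and 2 downward. With median centring the downward changes were 17 and 13 in the ER stress and NRF2 lists with none upward, and the mitosis list had 9 upward and none downward and the matrix list 10 upward and 3 downward.

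Between 6 and 48 h the difference changed in 371 genes (4.74%), upward in 145 (1.85%) and downward in 226 (2.89%). This split turned with the scaling: with median centring, which moved the median change of all genes by 0.12, 463 changed upward and 147 downward. The number was 198 without siNeg replicate 1 of 48 h, 208 without Control replicate 1 and 239 without Control replicate 2 of 48 h, 191 without siNeg replicate 2 of 6 h, and 208 and 232 without Control replicate 1 and 2 of 6 h.

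**Figure D5:**
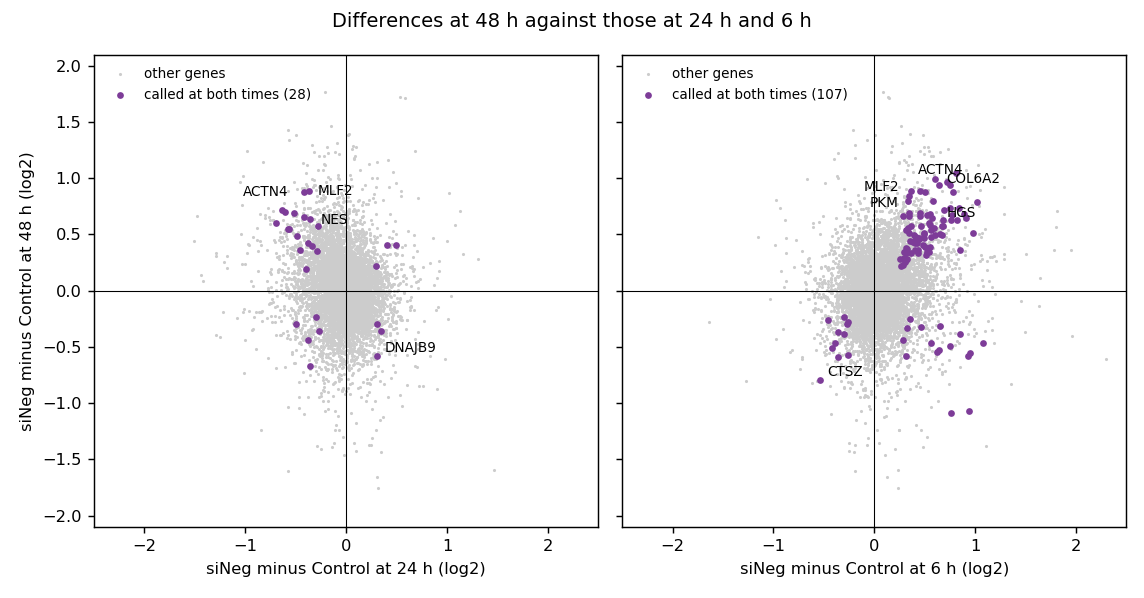
Log2 difference between siNeg and Control cells at 48 h (vertical axes) against that at 24 h (left) and at 6 h (right), with 1 point per gene and genes called at both times in purple. Of the 28 genes called at 48 and 24 h most lie in the upper left, higher at 48 h and lower at 24 h, whereas 80 of the 107 called at 48 and 6 h lie in the upper right; with the arrays centred on their medians these were 10 of 28 and 31 of 197.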

How the data were processed

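Gene expression was measured on 18 Affymetrix human arrays of U251 cells. The deposited values are MAS5 signals per the submitters' processing notes, and the log2 unit of the deposited table was taken from the values, since their antilogs gave each array a mean near 100.1 after trimming 2% at each end. Raw array files were not used here. Of 22277 probe sets, 62 were controls of the array. The 19064 others that named 1 gene in the platform annotation were used, with symbols updated through RefSeq, which matched 19052.

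Levels are log2(signal + 3), where 3 is the 20th percentile of the signals, with no further scaling. Probe sets in the lowest 40% by mean were left out and the brightest probe set of a gene was kept, leaving 7828 genes. This scale understates differences of dim genes, and the number of arrays limits the precision. The means of the 9 groups were estimated together by limma 3.58.1 (R 4.3.3) from all arrays, with 9 residual degrees of freedom and an intensity trend; tests were two-sided, with Benjamini-Hochberg adjustment over all genes. Called means an adjusted p under 0.05. Simulated data with independent noise of the fitted spread served as a check of the code. They held no shift of whole arrays, so they cannot show how such a shift would bear on the calls.

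Replicate arrays correlated at 0.971 to 0.982 and none were identical. The comparison, the 29 gene lists and the rule for named genes were chosen with earlier results of these data known. Some lists share members, among them ATF3, IER3, BIRC2, CRYAB and NPC1, so their counts are not separate. The rule took, among genes called at 48 h with separate groups, the 10 largest rises and falls and the 6 smallest p in each direction, the 5 largest called changes each way between 24 and 48 h, the 4 members of each list with the smallest p, and TTK. Promoters are those of RefSeq on GRCh38.p14.

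The alternatives were pseudocounts of 1 and 11, median centring, quantile normalization, a filter at 60% or none, the mean over a gene's probe sets, a count of probe sets, no intensity trend, a replicate block, a fit of the compared groups alone, a further demand of a 2-fold change, and each array left out in turn.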

Additional observations from a re-analysis of the deposited data

Results flagged for a closer look

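The following genes were picked out because the siNeg minus Control difference changed between 24 and 48 h by the test of that change itself. Of the 30 genes named for their difference at 48 h, 23 did so, against 10.3% of all genes. The difference at 48 h is part of this change, so the choice of these genes set their number and it is given as a description. Upward changes on the log2 scale were ZNF335 2.01, DHRS3 1.61, PPP2R1A 1.46, DCAF15 1.40, COL6A2 1.33, ACTN4 1.29, MLF2 1.25, TRIM28 1.25, COL9A3 1.21, PKM 1.13 and EFEMP1 0.64. Downward changes were C6orf15 -3.06, RASSF8 -2.07, HMOX1 -1.96, AGR2 -1.78, INO80D -1.62, IFI27 -1.60, AKR1C1 -1.52, CALB1 -1.45, GDF15 -1.27, DHRS9 -1.16, ANKRD1 -0.96 and KCNK1 -0.73.

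The 4 others, HDAC5 (2.14), C2orf68 (2.04), ASAP3 (2.02) and CLUHP3 (1.97), were named for the change alone and were not called at 48 h. With 2 arrays in each group, no group was large enough for a check of single outlying arrays.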

How the results depend on the processing

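The 1012 calls at 48 h numbered 698 to 1447 under the other settings with all 4 arrays, and 49 when a 2-fold change was also required. Leaving out 1 array gave 440 to 868. The 810 changes between 24 and 48 h became 526 without the intensity trend, 124 with the fold change and 399 to 784 without 1 array. The 371 changes between 6 and 48 h became 610 with median centring, 589 as probe sets, 219 without the trend, 67 with the fold change and 191 to 440 without 1 array. The NRF2 list had 8 members lower, in place of 13, in a fit of the compared groups alone. Apart from the fold change, 19 of the 30 genes named for 48 h kept their call under all alternatives run.

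Same-numbered arrays of different groups did not deviate together, with correlations of deviations from -0.14 to 0.10. The spread between arrays could hide a small shared effect, so this cannot show whether they shared a culture or a day. With the replicate block the calls numbered 995 at 48 h, 788 for the change between 24 and 48 h and 348 for that between 6 and 48 h.

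The sign turned for 7 genes that were not called. Without 1 array, TTK ranged from -0.092 (Control replicate 1 of 48 h left out) to 0.24, and was -0.024 without siNeg replicate 2. KRT8 ranged from -0.24 to 0.013, DCN from -0.47 to 0.057, KDR from -0.26 to 0.18 and COL1A1 from -0.17 to 0.058, with the positive values without siNeg replicate 2 for KRT8 and COL1A1, siNeg replicate 1 for DCN and Control replicate 2 for KDR. With probe sets averaged, CASP4 had 0.050 and HBB -0.051. The cause of each was not tested.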

Other observations

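Genes of cell shape and adhesion, chosen here after their values were seen, stood among the 17 that were higher in siNeg cells at 48 h and lower at 24 h. MYH9, the heavy chain of non-muscle myosin, had log2 differences of -0.49 at 24 h and 0.49 at 48 h. The actin-bundling protein FSCN1 had -0.41 and 0.66, the monomer-binding protein PFN1 had -0.28 and 0.57, and the fibronectin receptor chain ITGA5 had -0.57 and 0.55. The kinase AKT1 had -0.70 and 0.60, and the nuclear lamina protein LMNB2 had -0.61 and 0.70. PFN1 was also called at 6 h, with 0.36. With median centring the number of such genes was 10, and PFN1 was called at neither 6 nor 24 h (adjusted p = 0.058 and 0.157 by limma).

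The 16 genes with the opposite course, higher in siNeg cells at 6 h and lower at 48 h, held several zinc-finger genes and chromatin proteins, again chosen after their values were seen. ZNF160 had 1.07 at 6 h and -0.47 at 48 h, ZNF721 had 0.95 and -0.55, and ZNF611 had 0.75 and -0.49. The chromatin remodellers ATRX and BPTF had 0.32 and 0.33 at 6 h and -0.58 and -0.33 at 48 h. With median centring the number was 15, and ATRX and BPTF were not called at 6 h. No gene called at both times was lower at 6 h and higher at 48 h, against 42 with median centring.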
